A study of Mus musculus with 6 samples.

Results

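PIWI proteins and piRNA biogenesis factors were examined as a group of 10 genes: Piwil2, Piwil4, Mov10l1, Asz1, Mael, Pld6, Gtsf1, Henmt1, Fkbp6 and Mybl1. All probes annotated with these symbols were taken from an array of 45281 probes, which gave 11 probes for 9 of the genes, while Fkbp6 had no annotated probe and was not analysed here. The study profiled spermatogonial stem cells (SSC), germ cells of the testis that renew themselves and feed sperm production, from C57BL/6 mice in 3 samples, and embryonic stem cells (ESC) of the line R1/E, pluripotent cells of the early embryo, in 3 samples. Total RNA of each sample was turned into biotin-labelled cRNA and read on 1 single-colour Illumina bead array. No treatment, genotype, age, culture condition or isolation step is given in the sources used here. ESC are represented by 1 line, and strain cannot be told apart from cell type. The labels number the replicates without naming separate cultures or animals, so any p-value here reflects the spread among these arrays and that spread may be technical.

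piRNAs are small RNAs of animal germ cells that guide PIWI proteins to transposon transcripts. Long precursors are unwound and cut at the outer membrane of mitochondria, loaded onto a PIWI protein, trimmed and methylated at their end. In the mouse testis a first wave acts before birth, when nuclear PIWI complexes direct DNA methylation to transposons, and another large wave is made in meiotic spermatocytes. Embryonic stem cells restrain transposons mainly by other means, and many germ cell genes are held silent in them by promoter DNA methylation and by a Polycomb complex that contains MGA, MAX and E2F6.

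Of the 9 genes with a probe, 5 were higher in SSC: the piRNA-binding protein gene Piwil2, the helicase gene Mov10l1, the mitochondrial scaffold gene Asz1, and by less the cofactor gene Gtsf1 and the methyltransferase gene Henmt1. Piwil4 was at a level close to background in both groups and was not called. Mael, Pld6 and Mybl1 were detected on 0 of the 6 arrays. A probe counted as detected on an array at a detection p under 0.01, as measured when detected on at least 3 of 6 arrays, and as called at an adjusted p under 0.05 in limma. Among all 10024 measured genes 37.9% were called higher in SSC and 36.5% lower, so a single call is common here. Over all measured probes the shares were 36.1% and 37.5%. The measured genes numbered 6 of the 10, their median log2 difference was 1.77 against 0.00 over all measured genes, and 3 of them were at least 2-fold higher, which held for 17.5% of all measured genes. That median was 1.62 with Henmt1 at its bound (given with that gene), and 1.05 in the authors' processed table, where the median over all measured genes was again 0.00. The 3 SSC values and the 3 ESC values did not overlap for 5 of the 6, against 76.9% of all measured genes. Henmt1 passed the filter through its SSC arrays only, and Asz1 would have passed on those alone, so these counts describe the genes that the arrays could measure.

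**Figure D1:**
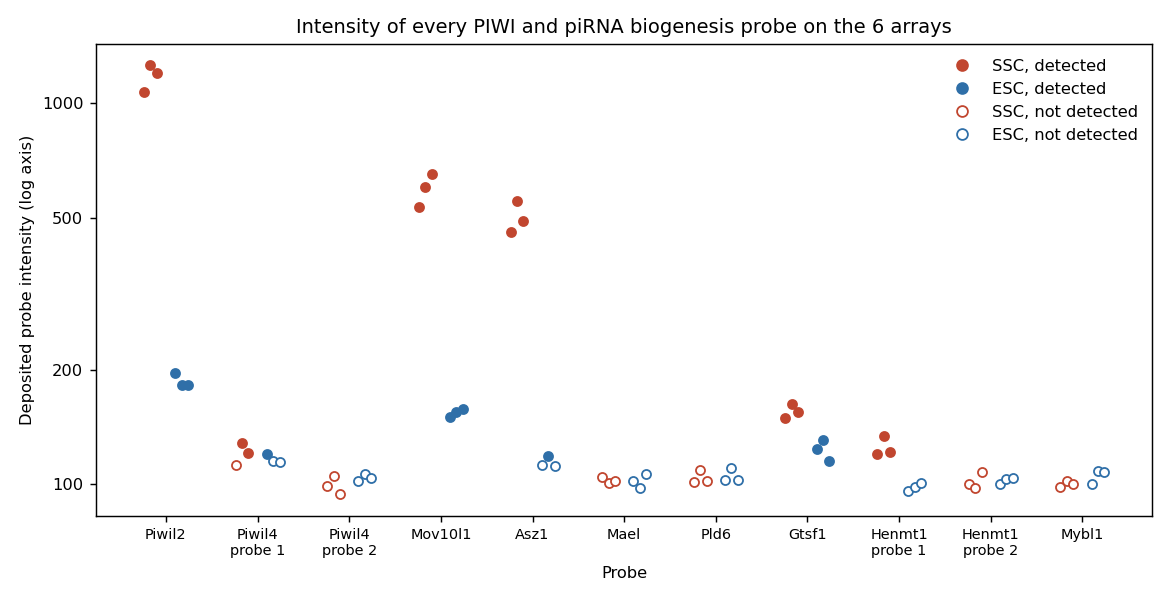
Deposited intensity of each of the 11 probes on each array (log axis), with SSC left of ESC, filled points detected and open points not detected. Piwil2, Mov10l1 and Asz1 stand far above background on the SSC arrays, and the probes of Mael, Pld6 and Mybl1 are open points near 100 on every array.

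Probes detected numbered 16505 to 17211 on the SSC arrays and 15242 to 15613 on the ESC arrays. Pearson's r between arrays over the measured probes was 0.989 to 0.993 inside a group and 0.784 to 0.795 across groups. Genes of undifferentiated spermatogonia were called higher in SSC for 10 of 14 and lower for 2. Genes of differentiating spermatogonia were higher for 5 of 6, and pluripotency genes lower for 10 of 10. Of these lists, 3, 2 and 3 genes passed the filter through 1 group only, the other being below detection on all its arrays. Marker lists of other testis cells each held more genes called higher in SSC than lower. The lower ones were Rhox5, Dhh, Tagln, Fn1, Cyp11a1 and Laptm5. Of all measured genes, 37.9% were called higher and 36.5% lower. Some of these markers also passed the filter through 1 group only. They were 4 of the 8 measured Sertoli cell genes and 6 of the 10 fibroblast and myoid cell genes. Among Leydig cell genes they were 2 of 4, and among macrophage and leukocyte genes 3 of 5. Sertoli cell genes were higher for 6 of 8 and lower for 2, with a summed normalised intensity of 3152 to 3403 on the SSC arrays and 1461 to 1690 on the ESC arrays, and none of the 8 was unmeasured. Of 10 genes of fibroblasts and myoid cells around the tubule, 7 were higher and 2 lower, with sums of 7816 to 8699 in SSC and 3767 to 3931 in ESC. These cells nurse the germ cells or wrap the tubules, and most of their listed genes were thus higher on the SSC arrays. Leydig cell genes were higher for 3 and lower for 1 of the 4 measured, with sums of 640 to 811 in SSC and 344 to 356 in ESC, and Star, Hsd3b1, Hsd3b6 and Nr5a1 did not pass the filter. Macrophage and leukocyte genes were higher for 3 and lower for 1 of 5, with sums of 296 to 321 in SSC and 1087 to 1155 in ESC, and Ptprc, Adgre1, C1qa and C1qb did not pass. The summed intensity of the 9 piRNA genes with a probe was 1960 to 2306 in SSC and 375 to 381 in ESC. Piwil2 is the largest part of that SSC sum, which also includes the undetected Mael, Pld6 and Mybl1 probes. Sums of different lists share no scale. The part of other cell types in these differences was not tested, and in such bulk samples fewer cells of a type and less RNA per cell cannot be told apart.

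PIWI proteins carry the piRNA and cut or silence its targets. Piwil2 encodes MILI, the PIWI protein present in male germ cells from fetal stages to round spermatids. Its probe had a deposited intensity of 1069, 1258 and 1201 on the SSC arrays and of 196, 183 and 182 on the ESC arrays. The lowest SSC array was thus well above the highest ESC array, and the probe was detected on all 6. After background correction and normalisation the log2 level was 10.06 ± 0.11 in SSC and 6.86 ± 0.09 in ESC (SD, n = 3 each), a difference of 3.20 ± 0.12 (SE, adjusted p = 8.77e-11 in limma). In the authors' processed table the means were 1159 ± 82.1 in SSC and 203 ± 7.29 in ESC (SD, n = 3 each). Of all measured genes, 2.14% had a larger difference toward SSC.

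Piwil4 encodes MIWI2, the nuclear PIWI protein that in fetal prospermatogonia directs DNA methylation to transposons. Its brighter probe read 112, 128 and 121 in SSC and 120, 115 and 114 in ESC, and was detected on 2 SSC arrays and 1 ESC array. These values overlap, and all lie close to the array medians of 106 to 109. The log2 difference was −0.05 ± 0.14 (SE, adjusted p = 0.740 in limma), with a 95% interval of −0.37 to 0.26. The other Piwil4 probe, to the same transcript record, was detected on 0 of 6 arrays, at 94.2 to 105 in SSC and 102 to 107 in ESC.

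Mov10l1 encodes a germ cell RNA helicase that feeds piRNA precursors into processing. It read 534, 603 and 654 on the SSC arrays and 151, 155 and 157 on the ESC arrays. Every SSC value was more than any ESC value, and all 6 arrays detected it. The log2 level was 8.91 ± 0.20 in SSC and 6.28 ± 0.10 in ESC (SD, n = 3 each), a difference of 2.63 ± 0.13 (SE, adjusted p = 1.51e-09 in limma). In the authors' processed table the means were 572 ± 70.1 in SSC and 165 ± 5.70 in ESC (SD, n = 3 each).

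Asz1 encodes GASZ, a protein anchored in the mitochondrial membrane that holds germ granule components together where precursors are cut. It read 458, 554 and 492 in SSC and 112, 118 and 112 in ESC. All SSC arrays detected it, but only 1 of the 3 ESC arrays did, so the ESC level sits at the edge of detection. The log2 level was 8.60 ± 0.10 in SSC and 4.88 ± 0.16 in ESC (SD, n = 3 each), a difference of 3.72 ± 0.13 (SE, adjusted p = 3.63e-11 in limma). This was the largest difference among the 6 measured genes, and 1.29% of all measured genes had a larger one. Its size depended on the background: the log2 difference was 2.03 in the authors' processed table as well as without background correction. The means in that table were 476 ± 26.9 in SSC and 116 ± 3.53 in ESC (SD, n = 3 each). In both settings Piwil2, at 2.51, had the larger difference, as it did at an offset of 50, with 2.88 against 2.73 for Asz1.

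Pld6 encodes the mitochondrial endonuclease that cuts piRNA precursors, next to which GASZ sits. Its probe read 101 to 109 in SSC and 103 to 111 in ESC and was detected on 0 of 6 arrays. The 2 ranges overlap. Because its only probe was undetected, no level or difference can be given for this step of the pathway.

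Gtsf1 encodes a small zinc finger protein that assists PIWI proteins in silencing. It read 149, 162 and 155 in SSC and 124, 131 and 115 in ESC, and was detected on all 6 arrays. The groups did not overlap, although the lowest SSC array and the highest ESC array were close. The log2 level was 5.94 ± 0.08 in SSC and 5.33 ± 0.30 in ESC (SD, n = 3 each), a difference of 0.61 ± 0.15 (SE, adjusted p = 0.00239 in limma). The log2 difference was 0.36 at a larger offset of 50 and 0.22 in the authors' processed table as well as without background correction, and it was called in each. A larger difference toward SSC was seen for 27.6% of all measured genes.

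Henmt1 encodes the methyltransferase that protects the ends of piRNAs from decay. One of its probes, to record NM_001078646, read 120, 134 and 122 in SSC and 96.1, 98.6 and 101 in ESC. It was detected on all 3 SSC arrays and on 0 ESC arrays, and the groups did not overlap. The normalised log2 level was 5.13 ± 0.15 in SSC and 4.22 ± 0.05 in ESC (SD, n = 3 each), and the fitted difference of 0.91 ± 0.12 (SE) was called (adjusted p = 1.82e-05 in limma). Because ESC were below detection, only a bound can be given, at least 1.09-fold higher in SSC. For the bound, each ESC array was set at the lowest value of any probe it detected, or at this probe's value where that was higher, and their mean was compared with the SSC mean, on the scale after background correction and normalisation. All bounds given here were made this way and hold on that scale only. The fitted difference was 0.39 at an offset of 50 and 0.31 in the authors' processed table as well as without background correction. The other Henmt1 probe, to record NM_025723, was detected on 0 of 6 arrays, at 97.5 to 108 in SSC and 100.3 to 104 in ESC.

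Mael encodes Maelstrom, a germ granule protein needed for transposon silencing in the testis. It read 101 to 105 in SSC and 97.6 to 106 in ESC, with 0 of 6 arrays detecting it. Mybl1 encodes A-MYB, the transcription factor that drives piRNA genes and precursors when spermatocytes enter pachytene. Its probe read 98.6 to 102 in SSC and 100.1 to 108 in ESC, again with 0 of 6 arrays detecting it. Both probes therefore lay at background in SSC as well as in ESC. Each of these genes has 1 probe, so a poor probe and a low level cannot be told apart. Among genes of meiotic prophase, 9 of 11 measured were higher in SSC and 0 lower, with sums of 3123 to 3348 in SSC and 1083 to 1202 in ESC, and Sycp3, Dmc1, Hormad1 and Mei4 did not pass the filter. Of the higher meiotic prophase genes, Sycp1, Sycp2 and Spo11 passed the filter through SSC arrays only. Among all measured genes, 37.9% were called higher. Of 9 spermatid genes with a probe, 7 did not pass and the other 2 were higher. The sums over the 9 were 525 to 982 in SSC and 345 to 385 in ESC.

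**Figure D2:**
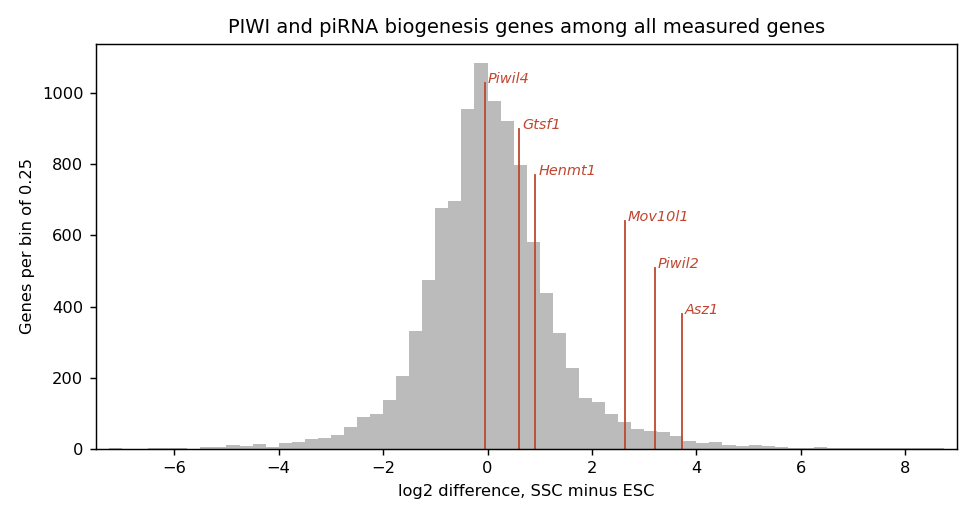
Number of measured genes by log2 difference, SSC minus ESC, in bins of 0.25 (grey), with the 6 measured PIWI and piRNA biogenesis genes as red lines. Asz1, Piwil2 and Mov10l1 lie in the upper tail, Henmt1 (a fitted value, not detected in ESC) and Gtsf1 within the body, and Piwil4 next to 0.

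The sequence before the annotated start of the genes was read from a table of RefSeq promoters for build GRCm38.p6. The table holds 8 of the 10 genes, with 11 annotated starts among them, and the sequences of Piwil2 and Mybl1 were not analysed here. The 250 bases before each start were searched on both strands for the E-box CACGTG, to which MGA and MAX bind, and for TCCCGC, letters of the E2F site, and these motifs do not overlap in any of the 11. The E-box was in 5 of the 11 stretches, 1 each of Mov10l1, Mael and Pld6 and 2 of Fkbp6, and in 6.02% of all 32851 stretches. The 2 stretches of Fkbp6 overlap and hold the same E-boxes. TCCCGC was in 1 of the 11, that of Mael, and in 16.9% of all. The looser MYB letters AACNG were in 9 of the 11 stretches and in 74.2% of all. Shown here are the stretch of the called gene with an E-box (Mov10l1, chr15:88982744-88982993, plus strand), of the 3 E-box genes without a measured level (Mael, chr1:166238745-166238994, minus strand; Pld6, second start, chr11:59787658-59787907, minus strand; Fkbp6, second start, chr5:135350045-135350294, minus strand), and of the gene with the largest difference, which holds neither motif (Asz1, chr6:18109062-18109311, minus strand). Each runs 5′ to 3′ on the gene's strand and ends at the base before the start, with the E-box and TCCCGC in capitals. Starts are numbered by rising genome coordinate, so on the minus strand the second start lies upstream of the first.
Mov10l1: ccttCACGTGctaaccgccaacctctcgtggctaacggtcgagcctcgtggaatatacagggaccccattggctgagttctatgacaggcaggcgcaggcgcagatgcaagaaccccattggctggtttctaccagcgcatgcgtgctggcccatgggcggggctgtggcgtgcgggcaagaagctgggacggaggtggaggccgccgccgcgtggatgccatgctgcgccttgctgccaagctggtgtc
Mael: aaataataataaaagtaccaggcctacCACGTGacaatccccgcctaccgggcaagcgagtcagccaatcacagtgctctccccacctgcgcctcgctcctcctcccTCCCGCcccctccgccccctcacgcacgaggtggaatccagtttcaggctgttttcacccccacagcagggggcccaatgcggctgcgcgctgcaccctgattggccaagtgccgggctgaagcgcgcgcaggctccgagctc
Pld6: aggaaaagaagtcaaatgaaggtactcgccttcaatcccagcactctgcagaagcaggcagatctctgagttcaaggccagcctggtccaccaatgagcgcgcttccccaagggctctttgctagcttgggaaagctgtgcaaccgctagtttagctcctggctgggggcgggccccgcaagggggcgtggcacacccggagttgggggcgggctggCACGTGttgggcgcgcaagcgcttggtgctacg
Fkbp6: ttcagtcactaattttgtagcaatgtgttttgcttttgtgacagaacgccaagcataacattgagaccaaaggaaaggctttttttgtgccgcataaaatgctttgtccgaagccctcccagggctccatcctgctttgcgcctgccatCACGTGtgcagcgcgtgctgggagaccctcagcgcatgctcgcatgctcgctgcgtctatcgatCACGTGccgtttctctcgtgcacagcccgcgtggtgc
Asz1: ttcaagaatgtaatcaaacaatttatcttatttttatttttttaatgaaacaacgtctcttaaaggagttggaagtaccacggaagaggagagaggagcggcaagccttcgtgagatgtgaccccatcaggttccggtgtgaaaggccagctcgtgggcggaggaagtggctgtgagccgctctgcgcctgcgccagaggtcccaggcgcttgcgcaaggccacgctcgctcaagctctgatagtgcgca

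The E-box of Mov10l1 lay at positions −246 to −241 from the start and that of Mael at −223 to −218, with TCCCGC at −143 to −138. The E-box of Pld6 lay at −33 to −28. Fkbp6 held a pair, at −101 to −96 and −37 to −32, and 0.429% of all stretches held at least 2. CpG pairs, the sites of DNA methylation, numbered 19 in the Mov10l1 stretch, 15 in that of Asz1, 30 in that of Henmt1 and 7 in that of Gtsf1, against a median of 6 over all stretches. Piwil4 had 0 before one start and 10 before the other. Over the 11 stretches the median was 17. CACGTG itself holds a CpG, and the 6.02% of all stretches with an E-box was not matched for CpG number. Of the 4 genes called and with a sequence, Mov10l1 had an E-box and Asz1, Gtsf1 and Henmt1 had no E-box in their stretches. These matches are letters in a window, and no binding or methylation was measured.

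**Figure D3:**
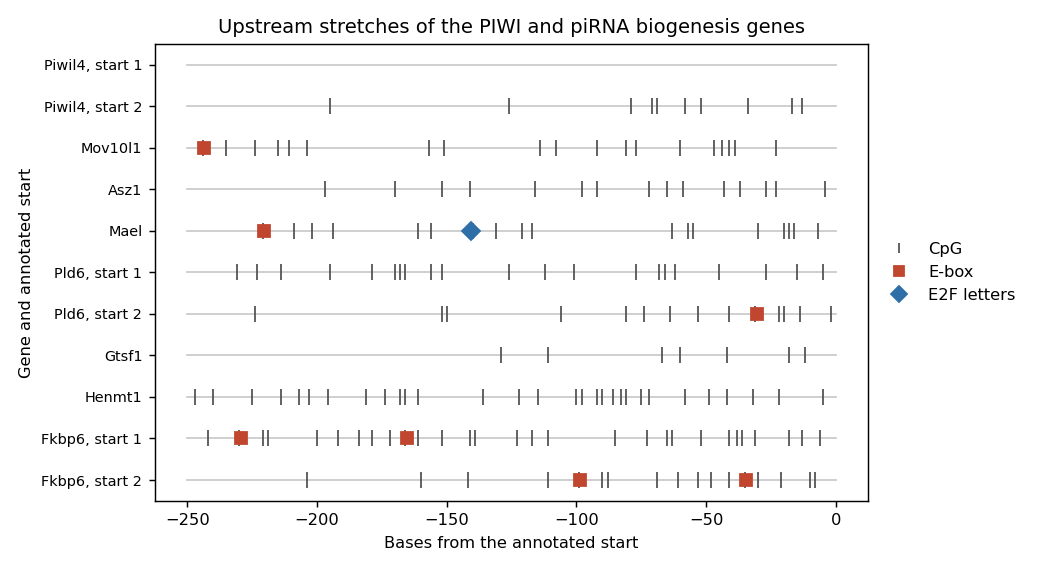
Positions of CpG pairs (ticks), E-boxes (red squares) and TCCCGC (blue diamond) in the 250 bases before each annotated start, in bases from the start. E-boxes stand in Mov10l1, Mael, 1 of the 2 stretches of Pld6 and both overlapping stretches of Fkbp6.

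The rest of the piRNA pathway did not move as a block. Its share called higher was 60% of the measured genes. Over all measured genes 37.9% were called higher and 36.5% lower. Of 20 further pathway genes, 18 had a probe and 15 were measured, with 9 higher in SSC, 4 lower and 2 not called, and a median log2 difference of 1.04. That median was 0.40 with Tdrd1, Tdrd6 and Tdrd9, which no ESC array detected, at their bounds, and 0.31 in the authors' processed table. Among the higher ones, the tudor helicase gene Tdrd9 was detected on all SSC arrays and on 0 ESC arrays, and after background correction it was at least 8.70-fold higher in SSC (adjusted p = 2.34e-10 in limma). In the authors' processed table its means lay closer, at 366 ± 14.3 in SSC and 113 ± 5.35 in ESC (SD, n = 3 each). Tdrd7, a tudor protein of the germ granule, was 9.69 ± 0.03 in SSC and 6.52 ± 0.25 in ESC on the log2 scale (SD, n = 3 each), a difference of 3.17. Piwil1, which encodes MIWI, the PIWI protein of spermatocytes and round spermatids, was 7.95 ± 0.43 in SSC and 5.55 ± 0.18 in ESC (SD, n = 3 each), a log2 difference of 2.40 ± 0.19 (SE, adjusted p = 1.15e-07 in limma), and its other probe differed by 3.04. So of the 3 mouse PIWI genes, Piwil1 and Piwil2 were higher in SSC, and Piwil4 was not called. The log2 difference was 2.18 for Tdrkh, which tethers PIWI proteins to mitochondria, 2.10 for Tdrd5 and 1.72 for the germ cell helicase Ddx4.

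Dnmt3l, a cofactor of de novo DNA methylation that acts downstream of nuclear PIWI complexes in fetal germ cells, was lower in SSC, at 6.72 ± 0.12 against 10.52 ± 0.11 in ESC (SD, n = 3 each), a log2 difference of −3.81 (adjusted p = 2.13e-11 in limma). Its other probe was detected on 0 SSC arrays and was at least 30.3-fold lower in SSC after background correction. In the authors' processed table that probe had means of 105 ± 0.591 in SSC and 941 ± 159 in ESC (SD, n = 3 each). Prmt5, the methyltransferase whose marks on PIWI proteins are read by tudor proteins, differed by −1.13 on the log2 scale, with its 3 probes between −1.58 and −1.13. Its partner Wdr77 was not called, at 7.76 in SSC and 7.92 in ESC. The tudor genes Rnf17 (−1.13) and Tdrd12 (−0.66) were also lower. Pnldc1, the trimming exonuclease, was not called, at 6.51 in SSC and 6.30 in ESC (adjusted p = 0.139 in limma, 95% interval of the difference −0.05 to 0.46).

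The microRNA machinery, which acts in most cells, held genes called in both directions. Its share called higher, 36.4% of the measured genes, was close to the 37.9% of all measured genes. Of all measured genes 36.5% were called lower. Of 12 microRNA machinery genes, 11 were measured, with 4 higher in SSC, 2 lower and 5 not called, and a median log2 difference of 0.12, or 0.064 with Ago4 at its bound. Ago3 was higher by a log2 difference of 0.84, Tnrc6b, a silencing scaffold, by 0.81, and Ago4, which no ESC array detected, by 1.05-fold or more. The other measured probes put Tnrc6b at −0.02 and 0.20, neither of them called. No other Ago4 probe passed the filter. The brighter of these was detected on 2 SSC arrays and 0 ESC arrays, with overlapping groups, and the dimmer on no array. Ago2, the Argonaute that cuts its targets, was lower at 7.33 ± 0.17 in SSC and 9.30 ± 0.14 in ESC (SD, n = 3 each), a log2 difference of −1.97 (adjusted p = 2.24e-08 in limma), and its other probes were at −1.65 and −1.36. The Dicer partner gene Tarbp2 was lower, at −0.82. Dicer1, singled out after its values were seen because its probes disagree, was not called by its brightest probe, while another probe was called lower, at −1.08. Its remaining measured probe was called higher, but no ESC array detected it. Only a bound can thus be given, at least 1.26-fold higher in SSC. Drosha, also named after its values were seen, was not called by its brightest probe. The other Drosha probe was called higher, at a log2 difference of 0.58.

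Paralogs of the piRNA genes were taken as a list of 6: Gtsf1l, Mov10, Mybl2, Myb, Fkbp4 and Fkbp5. The list leaves out Piwil1, a paralog of Piwil2 and Piwil4, which is counted above with the further pathway genes and was called higher. Of the 6 listed, 5 were measured, with 0 higher in SSC, 4 lower and 1 not called. Over all measured genes 37.9% were called higher and 36.5% lower. Gtsf1l, the paralog of Gtsf1, was 5.24 ± 0.16 in SSC and 11.50 ± 0.04 in ESC (SD, n = 3 each), a log2 difference of −6.25 where Gtsf1 itself was at 0.61. Mov10, the broadly used relative of Mov10l1, differed by −0.63 on the log2 scale, where Mov10l1 was at 2.63. Mybl2, the cell cycle relative of Mybl1, was at −3.31, while Myb did not pass the filter. Fkbp5 was at −0.59, and Fkbp4 was not called, at 11.36 in SSC and 11.49 in ESC. Intensities of different probes share no scale, so levels of a gene and its paralog were not compared.

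**Figure D4:**
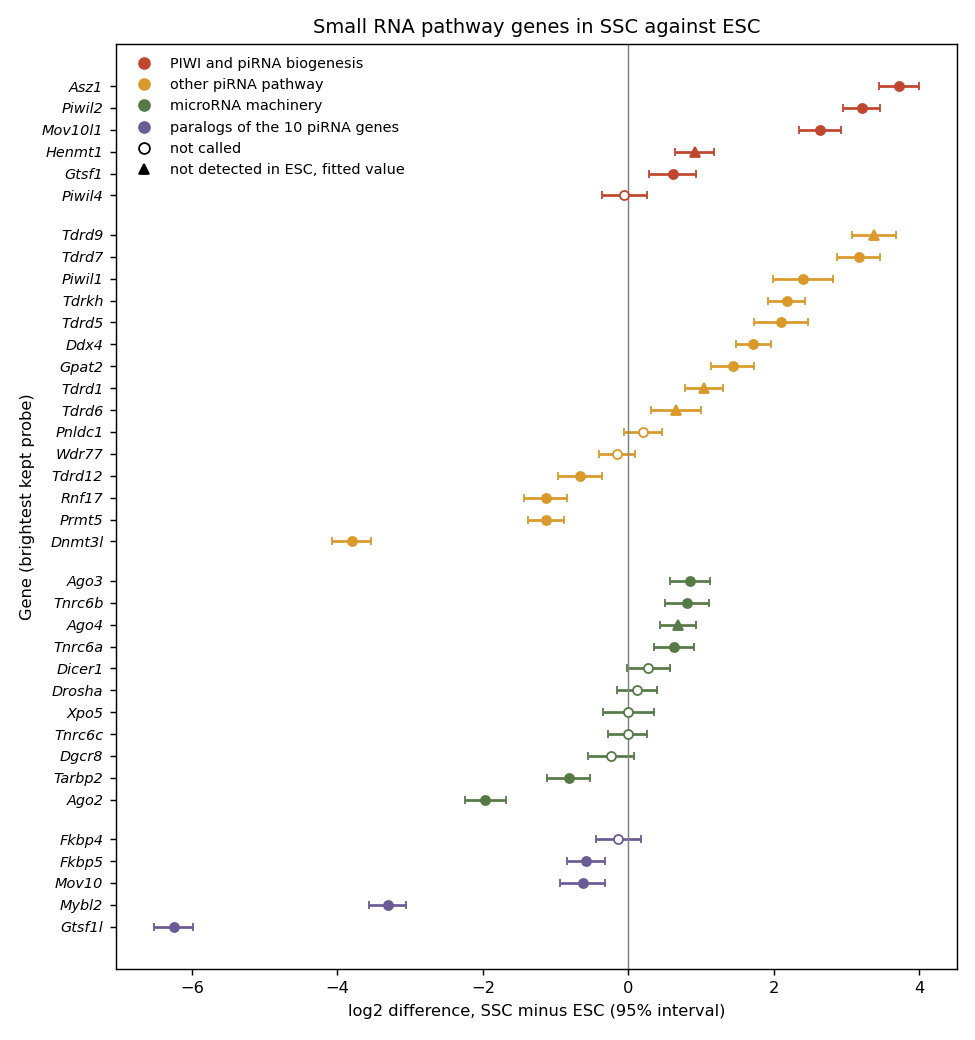
Log2 difference, SSC minus ESC, of the brightest measured probe of each gene with its 95% interval, for PIWI and piRNA biogenesis genes, other piRNA pathway genes, microRNA machinery and paralogs, with open symbols not called and triangles for genes that no ESC array detected, whose fitted values are not bounds. The piRNA genes spread from Dnmt3l at −3.81 to Asz1 at 3.72, microRNA genes from −1.97 to 0.84, and listed paralogs from −6.25 to −0.14.

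Likeness to Piwil2 was measured as the Euclidean distance between log2 profiles over the 6 arrays, each centred on its own mean. The nearest genes were Srgap3 (distance 0.14), Nrep (0.20), Tmem25 (0.21), Caskin1 (0.22) and Tril (0.22), whose fitted differences were 3.18, 3.27, 3.09, 3.21 and 3.09. Tmem25 was detected on 0 ESC arrays, so its place rests on an ESC level below detection, and its difference is known only as at least 4.96-fold. The nearest pathway gene was Tdrd7, in place 16 with a distance of 0.30, and Asz1 and Mov10l1 came in places 161 and 177. With 2 groups of 3 arrays this distance reflects mainly the size of the group difference.

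**Figure D5:**
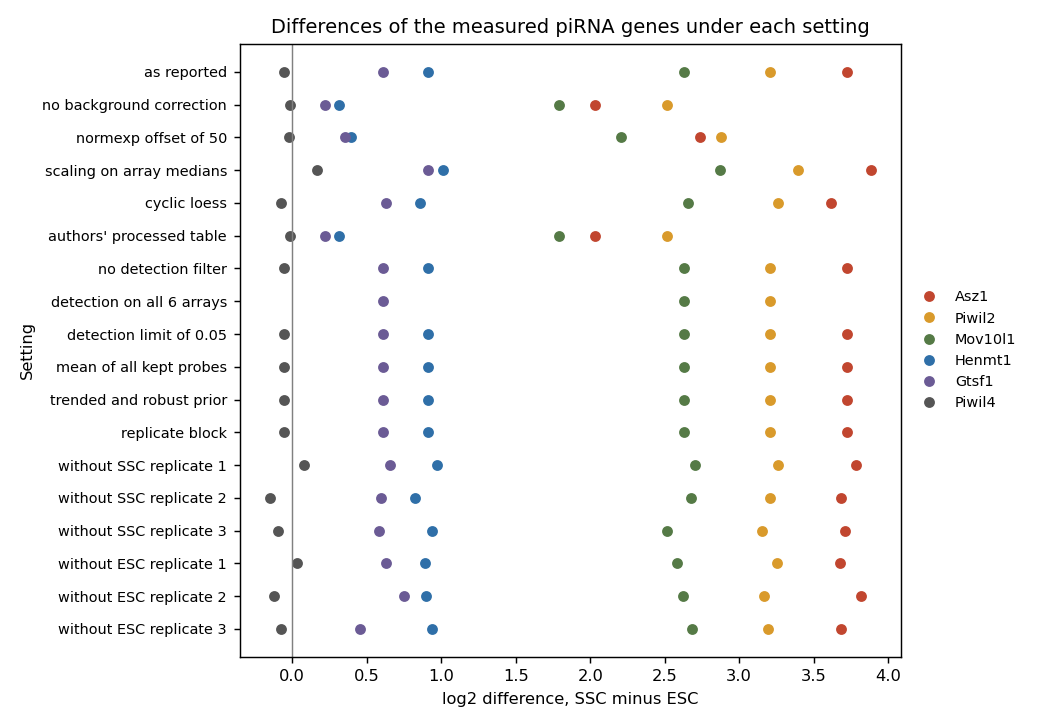
Log2 difference, SSC minus ESC, of the 6 measured PIWI and piRNA biogenesis genes as reported (top) and under each alternative setting. Asz1, Piwil2, Mov10l1, Henmt1 and Gtsf1 stay right of 0 in every setting that measured them, the values shrink without background correction and in the authors' processed table, and Piwil4 lies on both sides of 0.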

How the data were processed

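One deposited table holds linear intensity values, 1 for each probe on each array, before any normalisation or background subtraction. Beside each intensity it lists a detection p-value, deposited by the authors. GenomeStudio is named, with no version, per the submitters' processing notes. A processed table of intensity values by the authors shares its quantiles between arrays on a linear scale. Its medians were 107.09 to 107.14, and its ranks followed the unnormalised columns (rank correlation at least 0.999887). The steps behind it are not stated in the labels. Its differences nearly equalled those of quantile normalisation without background correction, with 2.51 for Piwil2 and 2.03 for Asz1 in both.

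Background was corrected by normexp from the detection p-values (offset 16), followed by quantile normalisation and log2 (limma 3.58.1, R 4.3.3). Probes detected (p under 0.01) on at least 3 of 6 arrays, 17435 in all, entered lmFit and eBayes with group as the one term and Benjamini-Hochberg adjustment over all of them. A gene took its brightest measured probe. Probes were named from the platform annotation: 34885 had 1 symbol, 18 several and 10378 are unnamed here; 34807 matched RefSeq (GRCm38.p6) and 0 symbols changed. The number of arrays limits the precision.

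The genes, lists and tests were chosen with earlier results of these data known. Named genes were all 10 genes, and up to 6 called per direction and 2 not called of the further pathway list. Also named were up to 3 per direction of the microRNA list, all 6 listed paralogs, and the 5 nearest to Piwil2. A marker list's sum is over the brightest probe of each gene with a probe, on the normalised linear scale. Alternatives were other background corrections, normalisations, filters, priors and thresholds, the authors' processed table, the mean of a gene's probes, leaving out each sample, and blocking on the replicate number.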

Additional observations from a re-analysis of the deposited data

How the results depend on the processing

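Of the 10 genes, Piwil2, Mov10l1 and Gtsf1 kept their direction and call in all 17 alternatives, and Asz1 and Henmt1 in the 16 that measured them. The authors' processed table and the setting without background correction gave nearly the same values, so they are hardly separate alternatives. The log2 difference ranged from 2.51 to 3.40 for Piwil2, 1.79 to 2.87 for Mov10l1, 2.03 to 3.89 for Asz1, 0.22 to 0.91 for Gtsf1 and 0.31 to 1.01 for Henmt1. Requiring detection on all 6 arrays tests fewer genes: it left 3 higher genes among the 10, 5 of the further pathway genes, 2 of the microRNA genes, and 3990 probes higher and 5149 lower of all tested (6294 and 6545 as reported). Piwil4, not called in any alternative, changed sign under scaling on array medians (0.17) and when single samples were left out (−0.15 to 0.079; 0.079 without SSC replicate 1 and 0.03 without ESC replicate 1); the cause was not tested. Scaling on array medians moved the median of all genes to 0.19 and made 59.5% of calls higher in SSC, against 49.0% as reported. With single samples left out, the higher genes numbered 5 among the 10, 9 of the further pathway genes, 4 to 5 of the microRNA genes and 5940 to 6184 of all probes. With the replicate number as a block, 5, 9 and 4 genes and 6221 probes were higher. Same-numbered samples deviated together at r = −0.14, −0.07 and 0.03, and differently numbered ones at −0.12 to 0.17. The labels do not say what the replicate number stands for, and a shared batch was not tested. Intensity near background limits Henmt1, Gtsf1, Piwil4 and the ESC level of Asz1.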
